A study of Mus musculus with 4 samples.

Results

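The 42 genes described here build and run the DNA replication machinery of S phase. They were taken by symbol from a table of 24537 genes: genes of origin licensing, helicase activation, the polymerases, the sliding clamp and its loader, nucleotide supply, the switch from G1 to S phase, and chromatin at the fork. All 42 were in the table, and all 42 had a mean of at least 1 FPKM (tags on a gene's exons, scaled to exon length and to the tags of the library), as did 9810 genes in all. The lowest of the 42 was Orc1 at a mean of 3.46 FPKM, so none lay near that minimum or below it.

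The RNA came from CD8+ tumour-infiltrating lymphocytes of mice, collected 21 days after implantation of the B16-GP33 tumour, a B16 melanoma whose name refers to GP33, a viral peptide seen by CD8+ T cells. There were 2 libraries of genotype ACSS2NLS and 2 of genotype EV, which served as the control here. The enzyme ACSS2 turns acetate into acetyl-CoA, and NLS commonly stands for nuclear localisation signal. How the cells were engineered, the mouse strain and the age were not stated in the labels. No group carried ACSS2 without the NLS label, so amount and location of the enzyme cannot be told apart.

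Acss2 was at 80.7 and 86.3 FPKM in the ACSS2NLS libraries, against 3.66 and 3.92 FPKM in the EV libraries, which matched the labels (limma-trend, log2 change 4.14 ± 0.11, SE, adjusted p = 0.000931). The libraries held about 46000000 to 49300000 tags, and each of the 42 genes had at least about 300 tags in every library. The CD8 T cell markers were plentiful: 9 of 9 were measured, and their summed level was 2257 and 1802 FPKM in ACSS2NLS against 2448 and 2039 FPKM in EV. Markers of other tumour cells differed between libraries of the same group. The 9 melanoma markers summed to 13.8 and 180 FPKM in ACSS2NLS replicates 1 and 2, against 7.62 and 46.2 FPKM in EV replicates 1 and 2, and all 9 had a higher mean FPKM in ACSS2NLS; none was at 0. The 18 myeloid markers summed to 222 and 804 FPKM in ACSS2NLS, against 120 and 558.5 FPKM in EV, with 13 of 18 higher in mean FPKM and S100a9 at 0 in 1 library. The summed markers of the remaining types ran from 52.8 to 112 FPKM in ACSS2NLS and 103 to 193 FPKM in EV for CD4 and regulatory T cells, 10.8 to 12.2 and 7.203 to 9.44 for NK cells, 17.5 to 18.6 and 8.62 to 14.5 for stroma and endothelium, 4.38 to 16.3 and 7.02 to 11.3 for red blood cells, and 2.97 to 3.21 and 1.58 to 2.38 for B cells, where Pax5 and Ebf1 were at 0 in at least 1 library. In bulk RNA, fewer cells in S phase and less of these RNAs per cell cannot be told apart.

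A cell copies its genome once per division. In G1 the origin recognition complex, CDC6 and CDT1 load the MCM2-7 helicase onto DNA. At the start of S phase CDC45 and the GINS complex turn it into a moving fork, where the polymerases, the PCNA clamp and its RFC loader copy the strands. Transcription factors of the E2F family switch on most of these genes together when cyclin D and cyclin E kinases release them from the RB protein. CD8+ T cells divide very fast after antigen contact, and in tumours part of the exhausted population keeps cycling.

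The promoters were searched for E2F words. In RefSeq promoter windows (GRCm38.p6, 250 bases before to 50 bases after a start site), 35 of the 42 genes had a window. Of these, 13 held a consensus E2F word (TTTCCCGC, TTTCGCGC, TTTGCCGC or TTTGGCGC, on either strand, overlaps allowed), a share of 37.1%, against 704 of 27025 genes of the whole promoter table, or 2.605%. The licensing genes held most of them, 7 of 9: Orc1, Cdc6, Cdt1, Mcm3, Mcm5, Mcm6 and Mcm7. None of the 5 nucleotide supply genes and neither of the helicase activation genes with a window held one. The others with a word were Pola1, Pold1, Rfc3, Lig1, E2f2 and Uhrf1. The word was not particular to these genes. In the lists described below, it stood in 9 of 23 windows of further G1/S control genes (39.1%). For further replication machinery this was 9 of 30 (30%), and for chromatin replication 3 of 13 (23.1%). For G2 and mitosis it was 3 of 35 (8.57%), and for further nucleotide genes 1 of 22 (4.55%). In 8 of the 13 genes a word lay wholly before the start site of the window. Those stretches are shown 5′ to 3′ on the gene's strand, with the words in capitals. For Cdc6 and Mcm7 the start site of the window is not the start of the transcript measured here. The measured Cdc6 transcript begins at chr11:98907889, so the Cdc6 stretch lies inside its span. The measured Mcm7 transcript begins at chr5:138171862 on the minus strand, so the Mcm7 stretch still lies before it.
Orc1 (chr4:108579403-108579453, plus strand): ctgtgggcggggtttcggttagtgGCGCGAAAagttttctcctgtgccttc
Cdc6 (chr11:98907989-98908044, plus strand): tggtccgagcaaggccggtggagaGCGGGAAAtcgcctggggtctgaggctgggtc
Mcm5 (chr8:75109332-75109391, plus strand): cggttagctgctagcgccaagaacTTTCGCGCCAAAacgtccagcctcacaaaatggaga
Mcm6 (chr1:128359721-128359839, minus strand): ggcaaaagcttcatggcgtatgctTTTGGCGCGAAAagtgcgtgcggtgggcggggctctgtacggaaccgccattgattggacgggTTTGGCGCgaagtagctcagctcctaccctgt
Mcm7 (chr5:138172017-138172072, minus strand): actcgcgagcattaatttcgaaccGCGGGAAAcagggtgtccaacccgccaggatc
Pola1 (chrX:93632262-93632317, minus strand): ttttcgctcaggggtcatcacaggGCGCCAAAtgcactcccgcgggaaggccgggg
Rfc3 (chr5:151651209-151651242, minus strand): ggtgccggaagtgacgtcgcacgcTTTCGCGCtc
Uhrf1 (chr17:56304104-56304159, plus strand): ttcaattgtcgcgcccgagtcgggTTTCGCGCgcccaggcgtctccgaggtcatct
In Mcm5 and in the first site of Mcm6, 2 words on opposite strands overlap in the same stretch. The CCAAT box stood in 21 of the 35 windows (60%, against 41.1% of all genes). It was more frequent in windows of G2 and mitosis genes (26 of 35, 74.3%) and of chromatin replication genes (9 of 13, 69.2%). For further G1/S control the share was 56.5%, for further replication machinery 43.3% and for further nucleotide genes 36.4%. The TTTGAA word, the core of the CHR element known from promoters of mitotic genes, stood in 4 of the 35 (11.4%, against 20.2% of all genes) and in 25 of 35 windows of G2 and mitosis genes (71.4%). A match is a description of the letters and was not tested as a site.

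Most of these genes were slightly lower in the ACSS2NLS cells, by amounts that did not pass the test for any single gene. Of the 42, 33 had a lower and 9 a higher mean, where 46.8% of all genes tested had a lower and 53.2% a higher mean. The median log2 change, ACSS2NLS minus EV on the log2(FPKM + 1) scale, was -0.13 over the 42 genes and 0.015 over all genes tested. Both ACSS2NLS libraries lay below both EV libraries for 18 of the 42 genes, where this held for 18.1% of all genes, and above both for 2, Orc6 and Ccne2, where this held for 19.3%. Among the 6986 genes in the same range of mean FPKM, 49.8% had a lower mean, and for 19.8% both ACSS2NLS values were under both EV values. The 13 genes with an E2F word had a median log2 change of -0.12, with 12 lower in mean, and the 22 with a window and no such word -0.15, with 16 lower. The ratio of the group means ran from 0.772 to 1.23. In limma-trend with Benjamini-Hochberg adjustment over the 9810 genes, 0 of the 42 passed at an adjusted p of 0.05, and the smallest adjusted p was 0.81; 0.0204% of all genes passed upward and 0% downward. At unadjusted p < 0.05, 3 of the 42 were lower (Pold1, Chaf1b and Uhrf1) and 0 higher, where 2.87% of all genes were lower and 3.1% higher.

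The size of the shift was close to the gap between replicates. The median gap between the 2 ACSS2NLS libraries was 0.12 and that between the 2 EV libraries 0.12 on the log2 scale, while the median size of the change was 0.15. The change was larger than both gaps for 13 genes, of which 12 were lower. This count was made for the 42 genes only, so no share over all genes stands beside it. EV replicate 1 stood highest: 27 of the 42 genes had their highest value there, and 35 were higher in it than in EV replicate 2. The lowest value lay in ACSS2NLS replicate 2 for 19 genes, in ACSS2NLS replicate 1 for 15, in EV replicate 2 for 6 and in EV replicate 1 for 2. The mean level of the 42 genes, relative to the mean over the libraries, was -0.032 and -0.078 in ACSS2NLS replicates 1 and 2, against 0.11 and -0.0037 in EV replicates 1 and 2. Without EV replicate 1 the median log2 change was -0.065, and 34 of the 42 genes were lower in mean; these were not all the same genes, since Pola1 and Slbp became higher and Cdc45, Gins1 and Ccne1 lower. EV replicate 1 also had the lowest summed melanoma and myeloid markers and the highest summed CD8 T cell markers. Of the 9 CD8 T cell markers 8 were lower in mean in ACSS2NLS, with a median log2 change of -0.15, about the size seen for the replication genes; the part of the cell mixture in the result was not tested.

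**Figure D1:**
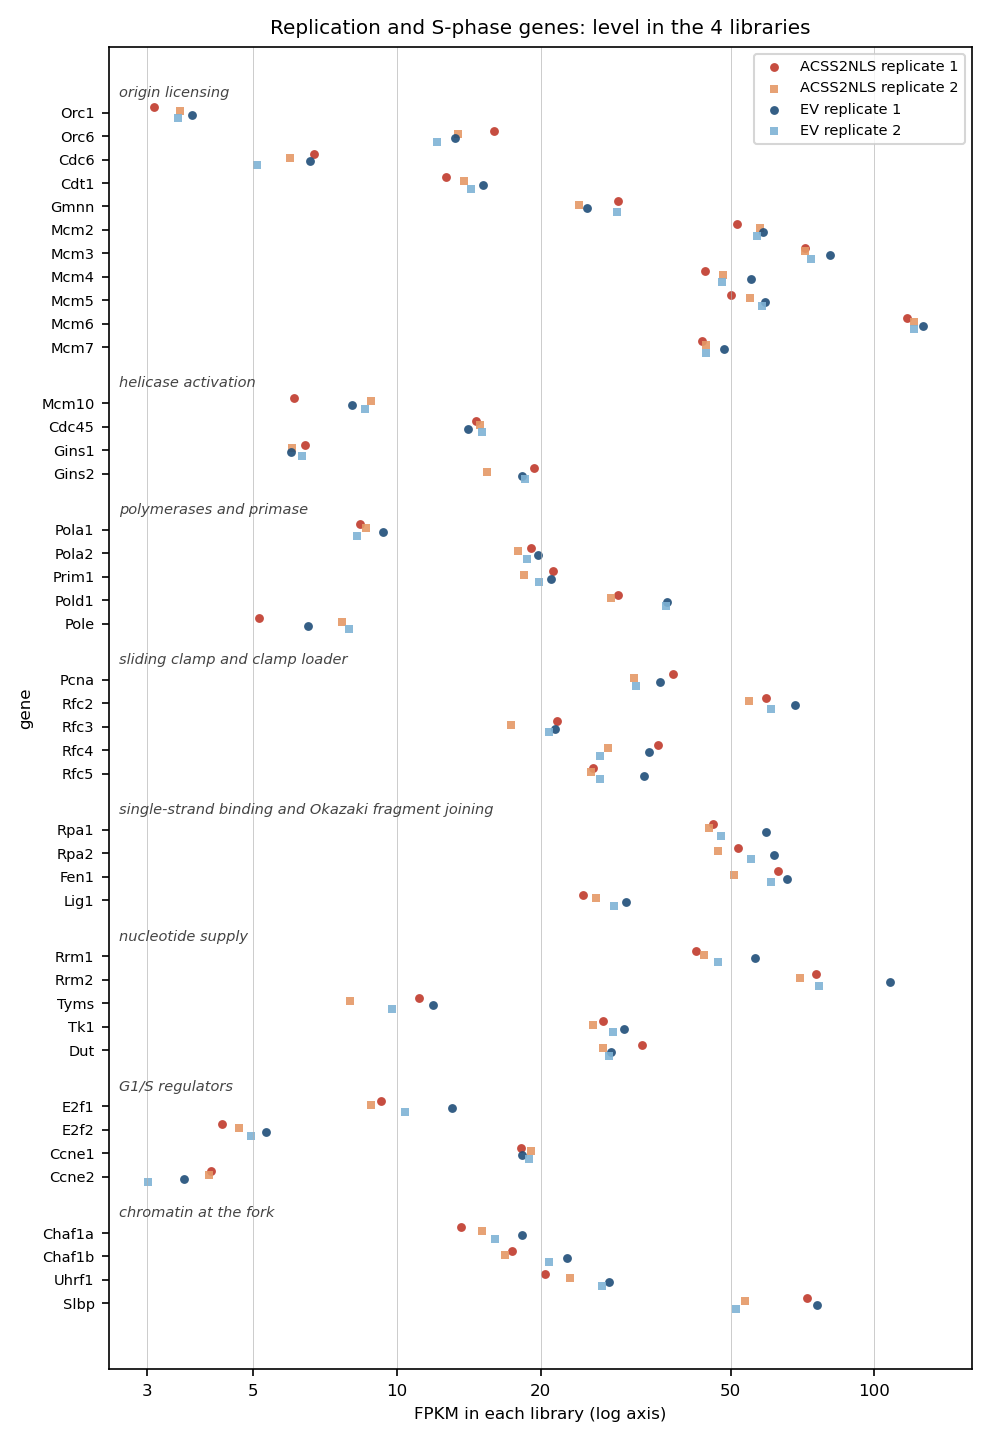
Level of each of the 42 genes in FPKM on a log axis, grouped by role, with a point for each library (red and orange for ACSS2NLS, dark and light blue for EV). Levels run from about 3 FPKM for Orc1 and Ccne2 to over 100 FPKM for Mcm6, and the 4 points of most genes lie close together, with EV replicate 1 often at the right.

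Of the 11 origin licensing genes 9 had a lower mean; the median of their log2 changes was -0.079, and 0 passed the test. Mcm5, a subunit of the helicase ring, was at 50.1 and 54.9 FPKM in ACSS2NLS, against 58.9 and 58.1 FPKM in EV (log2 change -0.16 ± 0.11, SE, n = 2 per group). Both ACSS2NLS libraries were below both EV libraries. Cdt1, which brings the helicase to the origin, was at 12.7 and 13.8 FPKM in ACSS2NLS, against 15.2 and 14.3 FPKM in EV (log2 change -0.15 ± 0.12). The groups did not overlap here either, although the nearest libraries differed by little. Mcm2 was at 51.6 and 57.6 FPKM in ACSS2NLS, against 58.4 and 56.9 FPKM in EV (-0.079 ± 0.12), and its groups overlapped. Orc6, the smallest subunit of the origin recognition complex, had the opposite sign, at 16.0 and 13.4 FPKM in ACSS2NLS, against 13.2 and 12.2 FPKM in EV (0.19 ± 0.14). Its higher value came mainly from ACSS2NLS replicate 1, while replicate 2 was barely above EV replicate 1. Gmnn encodes geminin, the inhibitor that holds CDT1 to stop origins from firing again. It was at 29.0 and 24.04 FPKM in ACSS2NLS, against 25.1 and 28.8 FPKM in EV (-0.025 ± 0.14, and 0.0083 after quantile normalization), with the groups fully overlapping.

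Of the remaining licensing genes, Mcm3, Mcm4, Mcm6 and Mcm7 had log2 changes of -0.11, -0.16, -0.056 and -0.074. Both ACSS2NLS libraries were below both EV libraries for Mcm3 and Mcm6 and not for Mcm4 and Mcm7. The origin binder Orc1 and the loader Cdc6 had log2 changes of -0.097 and 0.11, with overlapping groups. The proportions within the helicase ring were alike in the 4 libraries. Mcm6 was the most abundant, with 31.0% and 30.4% of the summed FPKM of Mcm2 to Mcm7 in ACSS2NLS, against 29.6% and 30.1% in EV. Mcm3 came next, with 18.9% and 18.01% in ACSS2NLS, against 18.9% and 18.3% in EV, and Mcm7 made up 11.5% and 11.2%, against 11.3% and 11.1%. The 6 genes together came to 378 and 398 FPKM in ACSS2NLS, against 428 and 402 FPKM in EV, so both ACSS2NLS libraries were below both EV libraries, with the gap between the EV libraries larger than that between the nearest libraries of the groups. The ratio of Gmnn to Cdt1 was 2.29 and 1.74 in ACSS2NLS, against 1.65 and 2.02 in EV, and overlapped.

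**Figure D2:**
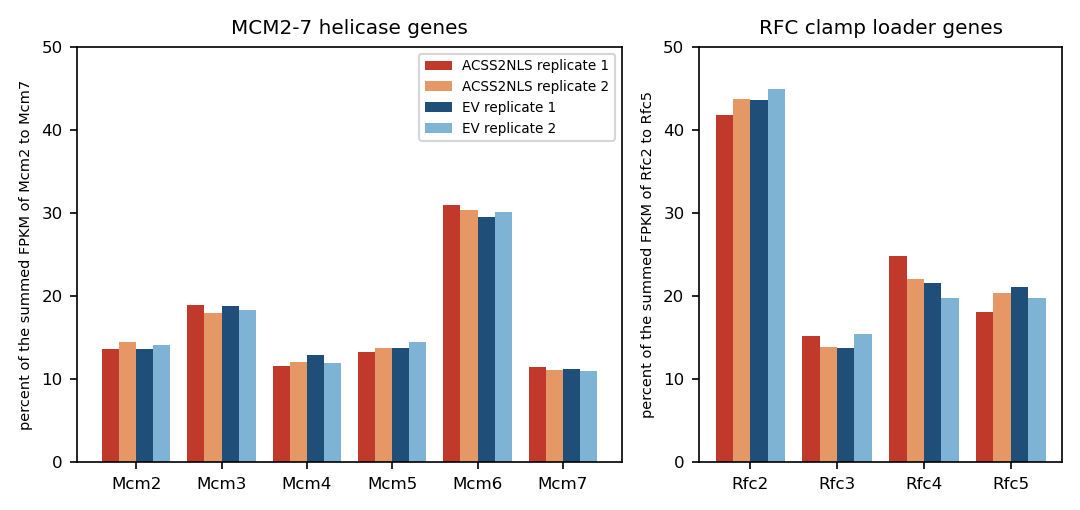
Share of each gene in the summed FPKM of Mcm2 to Mcm7 (left) and of Rfc2 to Rfc5 (right), in percent, with a bar for each library (red and orange for ACSS2NLS, dark and light blue for EV). Mcm6 takes about 30% and Rfc2 over 40% in every library, and the bars of a gene differ by little.

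Of the 4 genes that activate the helicase, 2 were lower and 2 higher in mean, and 0 passed the test. Mcm10, which helps the loaded rings to open, was at 6.10 and 8.83 FPKM in ACSS2NLS, against 8.07 and 8.60 FPKM in EV (log2 change -0.16 ± 0.19). ACSS2NLS replicate 1 was low and replicate 2 was the highest of the 4 libraries. Gins2, a subunit of the GINS complex, was at 19.4 and 15.4 FPKM in ACSS2NLS, against 18.3 and 18.6 FPKM in EV (-0.089 ± 0.14), so both EV libraries lay between the ACSS2NLS libraries. Cdc45, the third part of the moving helicase, was at 14.7 and 14.9 FPKM in ACSS2NLS, against 14.1 and 15.1 FPKM in EV (0.019 ± 0.11), and Gins1 had a log2 change of 0.011 (-0.024 after quantile normalization). The groups overlapped for all 4 genes, and their median, -0.039, became 0.029 without ACSS2NLS replicate 2.

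Pold1 had the smallest p of the 42 genes. It encodes the catalytic subunit of polymerase delta, which copies the lagging strand, and was at 29.0 and 28.1 FPKM in ACSS2NLS, against 36.8 and 36.5 FPKM in EV. The libraries of each group lay close together and the groups were well apart, at a ratio of means of 0.778 (log2 change -0.35 ± 0.10, limma-trend unadjusted p = 0.0178, adjusted p = 0.81). Pole, the catalytic subunit of polymerase epsilon on the leading strand, was at 5.15 and 7.67 FPKM in ACSS2NLS, against 6.52 and 7.95 FPKM in EV (-0.17 ± 0.21). The libraries of each group were far apart, and the groups overlapped. Pola2, of the polymerase alpha and primase complex that starts each strand, was at 19.1 and 17.95 FPKM in ACSS2NLS, against 19.8 and 18.7 FPKM in EV (-0.051 ± 0.11). Its groups overlapped, as did those of its partners Pola1 and Prim1, with log2 changes of -0.039 and -0.044. All 5 genes were lower in mean, with a median of -0.051.

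PCNA, the ring that holds the polymerases on DNA and a common marker of S phase, did not differ between the groups beyond their spread. Pcna was at 37.9 and 31.3 FPKM in ACSS2NLS, against 35.6 and 31.6 FPKM in EV (log2 change 0.038 ± 0.14). The replicate 1 library was the higher of its group in both. The subunits of the RFC clamp loader had changes of both signs. Rfc5 was at 25.7 and 25.5 FPKM in ACSS2NLS, against 32.9 and 26.6 FPKM in EV (-0.20 ± 0.14), and Rfc2 at 59.3 and 54.7 FPKM, against 68.1 and 60.7 FPKM (-0.17 ± 0.12). For both, the ACSS2NLS libraries lay below the EV libraries, with EV replicate 1 the highest. Rfc3 was at 21.6 and 17.3 FPKM in ACSS2NLS, against 21.5 and 20.9 FPKM in EV (-0.12 ± 0.14), and Rfc4 had a log2 change of 0.056, both with overlapping groups. The median of the 5 clamp and loader genes was -0.12, and 0.032 without ACSS2NLS replicate 2. Rfc4 made up 24.8% and 22.1% of the summed FPKM of the 4 loader genes in ACSS2NLS, against 21.6% and 19.8% in EV.

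All 4 genes of single-strand binding and Okazaki fragment joining were lower in mean, with a median log2 change of -0.21. Rpa2, a subunit of the RPA complex that coats single-stranded DNA, was at 51.8 and 47.0 FPKM in ACSS2NLS, against 61.6 and 55.2 FPKM in EV (-0.24 ± 0.12). Rpa1, its largest subunit, was at 45.9 and 45.0 FPKM, against 59.2 and 47.8 FPKM (-0.22 ± 0.14). Lig1, the ligase that seals Okazaki fragments, was at 24.5 and 26.2 FPKM in ACSS2NLS, against 30.3 and 28.5 FPKM in EV (-0.21 ± 0.11). For these 3 genes the groups did not overlap. For Rpa1, EV replicate 2 lay close to the ACSS2NLS libraries. Fen1, the flap nuclease that trims the fragments, had a log2 change of -0.16 with overlapping groups. Without EV replicate 1 the median of the 4 genes was -0.13.

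Nucleotide supply genes were lower in mean in 4 of 5, with a median log2 change of -0.18 that was -0.074 without EV replicate 1 and -0.31 without EV replicate 2. Ribonucleotide reductase makes all deoxyribonucleotides, and both of its S-phase subunits were lower in mean. Rrm2, the subunit whose amount follows S phase, was at 75.3 and 69.8 FPKM in ACSS2NLS, against 108 and 76.4 FPKM in EV (-0.32 ± 0.19). EV replicate 2 was just above ACSS2NLS replicate 1, and the log2 change of Rrm2 was -0.074 without EV replicate 1. Rrm1, the large subunit, was at 42.2 and 44.1 FPKM in ACSS2NLS, against 56.3 and 47.1 FPKM in EV (-0.25 ± 0.13), again with EV replicate 1 the highest. The ratio of Rrm2 to Rrm1 was 1.78 and 1.59 in ACSS2NLS, against 1.92 and 1.62 in EV, and overlapped. Tk1, which salvages thymidine, was at 27.0 and 25.8 FPKM in ACSS2NLS, against 29.9 and 28.3 FPKM in EV (-0.14 ± 0.11), without overlap. Tyms, which makes thymidylate, was at 11.1 and 7.96 FPKM in ACSS2NLS, against 11.9 and 9.76 FPKM in EV (-0.18 ± 0.19). Its groups overlapped, with both replicate 1 libraries the higher of their group. The Tyms values were computed on a RefSeq transcript of 3801 bases listed as non-coding, so they may not follow the coding mRNA alone. Dut, which removes dUTP, had a log2 change of 0.081, with ACSS2NLS replicate 1 above the other libraries.

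The G1/S regulators had changes of both signs, and 0 of 4 passed the test. E2f1, an activating factor of the E2F family, was at 9.27 and 8.83 FPKM in ACSS2NLS, against 13.1 and 10.4 FPKM in EV (log2 change -0.33 ± 0.15), the lowest ratio of means among the 42 genes, 0.772. E2f2, another activator, was at 4.31 and 4.68 FPKM in ACSS2NLS, against 5.32 and 4.96 FPKM in EV (-0.16 ± 0.14). For both, the ACSS2NLS libraries lay below the EV libraries, and the change of E2f1 was -0.18 without EV replicate 1. The cyclin E genes, whose products drive the entry into S phase with CDK2, had means at or above those in EV. Ccne1 was at 18.2 and 19.1 FPKM in ACSS2NLS, against 18.3 and 18.9 FPKM in EV (0.0080 ± 0.11), with the groups overlapping. Ccne2 was at 4.09 and 4.04 FPKM in ACSS2NLS, against 3.58 and 3.01 FPKM in EV (0.24 ± 0.15), with both ACSS2NLS libraries above both EV libraries and the highest ratio of means of the 42, 1.23. The ratio of Ccne1 to Ccne2 was 4.46 and 4.74 in ACSS2NLS, against 5.10 and 6.27 in EV, without overlap.

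Chromatin genes of the fork had a median log2 change of -0.28, with all 4 lower in mean and 0 past the test; it ran from -0.34 to -0.21 when each library was left out in turn. CAF-1 places new histones behind the fork. Its subunit Chaf1b was at 17.4 and 16.8 FPKM in ACSS2NLS, against 22.7 and 20.8 FPKM in EV (log2 change -0.33 ± 0.11, limma-trend unadjusted p = 0.0301, adjusted p = 0.81). Chaf1a was at 13.6 and 15.1 FPKM, against 18.3 and 16.1 FPKM (-0.24 ± 0.13). Uhrf1, which guides the DNA methyltransferase DNMT1 to newly copied DNA, was at 20.4 and 23.0 FPKM in ACSS2NLS, against 27.8 and 26.9 FPKM in EV (-0.32 ± 0.12, unadjusted p = 0.0359, adjusted p = 0.81 in limma-trend). The groups did not overlap for any of these 3. Slbp, which binds the stem-loop of histone mRNAs, was at 72.3 and 53.6 FPKM in ACSS2NLS, against 75.8 and 51.4 FPKM in EV, and differed far more between the replicates than between the groups (-0.0035 ± 0.24, and 0.0092 after quantile normalization).

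**Figure D3:**
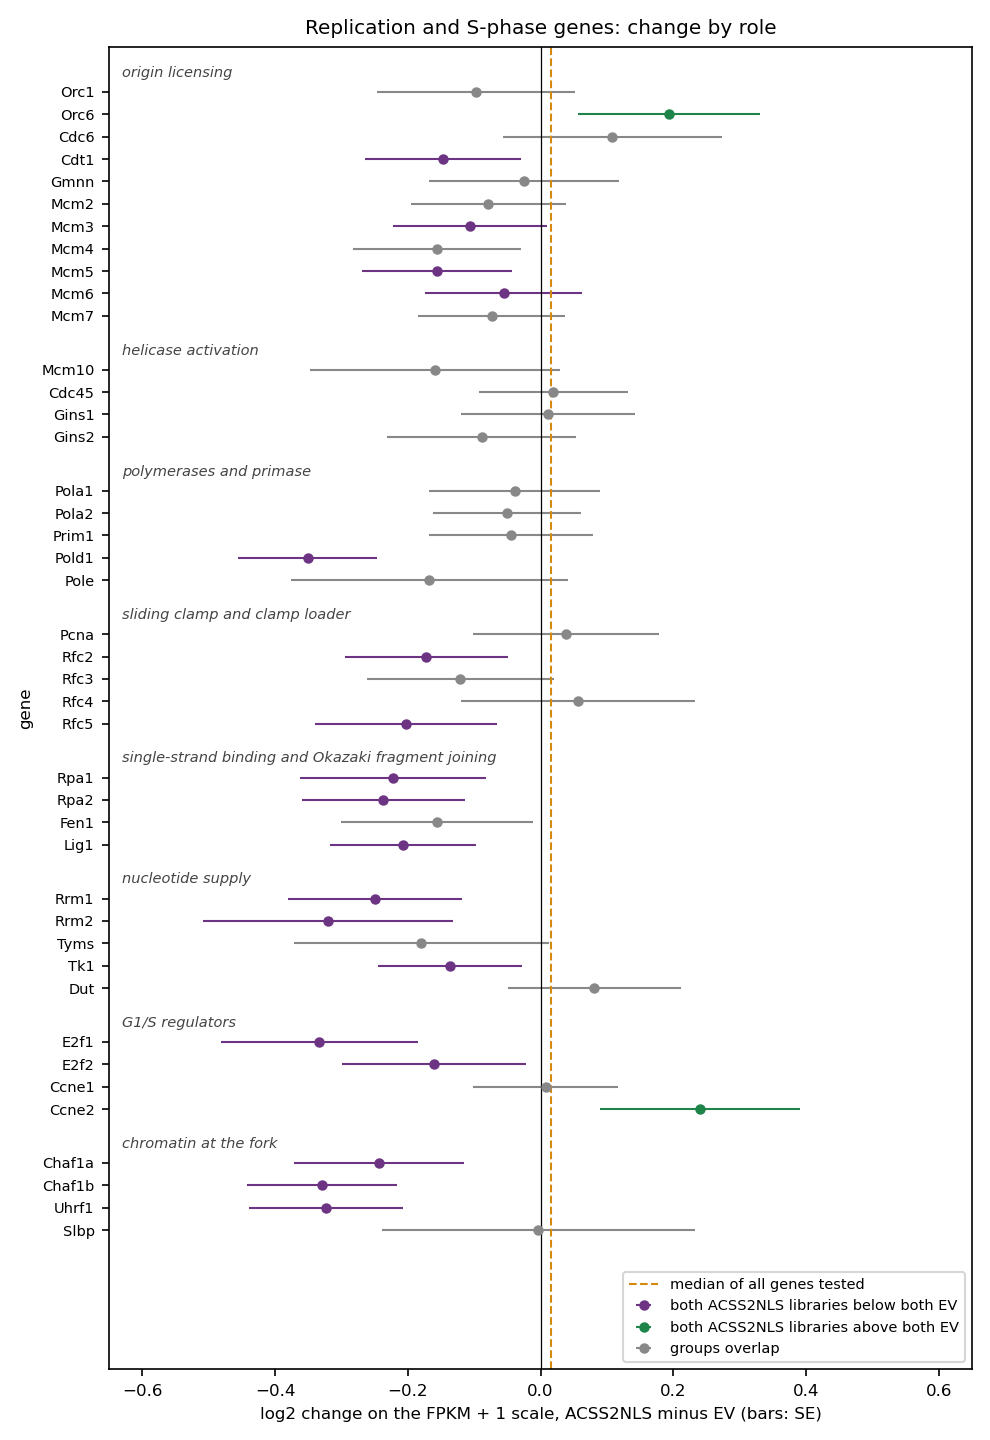
Change of each of the 42 genes, ACSS2NLS minus EV on the log2(FPKM + 1) scale, by role; points are limma estimates and bars their SE, purple where both ACSS2NLS libraries lie below both EV libraries, green where both lie above, grey where the groups overlap. Most points lie left of 0 and of the dashed median of all genes, from -0.35 for Pold1 to 0.24 for Ccne2.

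Reads of overlapping genes limit some of these values. In GENCODE M21, 16 of the 42 genes share exon bases with another gene, 15 of them only with genes on the opposite strand, and the sources do not state whether the library preparation retained strand. Counted over all GENCODE exons of a gene, Gins2 shares 2758 bases with Gse1, Fen1 1908 with Gm10143, Chaf1a 1862 with Ubxn6 and Rfc2 952 with Lat2. Rfc5 shares 499 with Wsb2, Slbp 380 with Gm10459, Orc1 360 with Gm12743 and Ccne2 336 with Ints8, and the other overlaps are smaller. Such counts can reach beyond the measured transcript, which for Gins2 has 1031 bases. Part of the signal of these genes may belong to the partner, by an amount that was not measured. Pold1, Chaf1b, Uhrf1, E2f1, Rrm1, Rrm2 and Rpa2 share none.

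Of 38 further genes of the replication machinery, 19 were lower and 19 higher in mean. Both ACSS2NLS values were under both EV values for 9 and over them for 4, against 18.1% and 19.3% of all genes. These 38 genes had a median log2 change of 0.0063 (-0.00061 after median-of-ratios scaling and -0.015 after quantile normalization). In limma-trend 0 passed in either direction, with 4 lower and 0 higher at unadjusted p < 0.05, against 2.87% and 3.1% of all genes. The 3 with the smallest p were lower. Chtf18, of an alternative clamp loader, was at 8.80 and 8.26 FPKM in ACSS2NLS, against 12.3 and 11.2 FPKM in EV (-0.42 ± 0.12). Prim2, the large primase subunit, was at 9.52 and 8.80 FPKM, against 12.7 and 11.3 FPKM (-0.35 ± 0.13). Pold2, another subunit of polymerase delta, was at 29.1 and 27.8 FPKM, against 36.4 and 33.7 FPKM (-0.29 ± 0.11). Both ACSS2NLS libraries were thus below both EV libraries for Pold2, as for Pold1.

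The further nucleotide genes, mostly of purine and pyrimidine synthesis, were mostly higher in mean. Of 25 measured of 26, 22 were higher in mean, with a median of 0.094. In limma-trend 0 passed, with 1 higher and 0 lower at unadjusted p < 0.05 (3.1% and 2.87% of all genes). Nme2, a nucleoside diphosphate kinase, was at 59.4 and 57.8 FPKM in ACSS2NLS, against 42.7 and 46.4 FPKM in EV (0.39 ± 0.11). Ppat, the entry enzyme of purine synthesis, had 0.28 ± 0.14, and Impdh1, of guanine nucleotide synthesis, -0.29 ± 0.12.

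Further G1/S regulators had 16 of 27 measured genes lower in mean and 11 higher (median -0.083). In limma-trend 2 were lower and 1 higher at unadjusted p < 0.05 (2.87% and 3.1% of all genes), and 0 passed the threshold. Cdkn1a, which encodes the cyclin kinase inhibitor p21, was at 10.4 and 13.7 FPKM in ACSS2NLS, against 30.2 and 18.5 FPKM in EV (-0.93 ± 0.26). Both ACSS2NLS libraries were below both EV libraries, and the EV libraries differed widely, with a log2 change of -0.59 without EV replicate 1. Ccnd3, the D-type cyclin of lymphocytes, was at 52.5 and 50.5 FPKM, against 64.6 and 62.0 FPKM (-0.29 ± 0.11). Cdca7, which recruits the remodeller HELLS to chromatin, was at 18.9 and 19.8 FPKM in ACSS2NLS, against 12.2 and 13.4 FPKM in EV (0.56 ± 0.12, adjusted p = 0.775 in limma-trend). Hells itself was at 16.5 and 14.97 FPKM, against 12.5 and 9.66 FPKM (0.48 ± 0.16). In its list of 14 chromatin replication genes, 9 were higher and 5 lower in mean (median 0.037, and -0.034 without ACSS2NLS replicate 2). Of the 14, 2 were higher and 0 lower at unadjusted p < 0.05 in limma-trend (3.1% and 2.87% of all genes), and 0 passed the threshold. The histone chaperones Asf1a and Asf1b had log2 changes of 0.39 ± 0.13 and -0.34 ± 0.19. Asf1b was at 29.9 and 28.2 FPKM in ACSS2NLS, against 44.8 and 30.7 FPKM in EV, and its change was -0.075 without EV replicate 1.

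Replication-dependent histone genes, whose mRNAs are made in S phase and mostly lack a poly(A) tail, were mostly higher in mean in ACSS2NLS. How evenly the library preparation captured RNAs without such a tail was not tested, so these values may not follow the amount of histone mRNA. Of 69 genes listed, 42 had a mean of at least 1 FPKM, and 37 of these were higher in mean in ACSS2NLS, with a median log2 change of 0.31. Of the 42, 5 were higher and 0 lower at unadjusted p < 0.05 (3.1% and 2.87% of all genes), and 0 passed in limma-trend. Their mean level relative to the mean of the libraries was 0.32 and -0.0098 in ACSS2NLS replicates 1 and 2, against -0.31 and -0.0034 in EV replicates 1 and 2, so the replicate 2 libraries hardly differed. The median was 0.13 without ACSS2NLS replicate 1 and 0.15 without EV replicate 1, and 0.44 and 0.45 without the replicate 2 library of ACSS2NLS and of EV. Hist1h2ae was at 37.2 and 33.0 FPKM in ACSS2NLS, against 20.6 and 21.6 FPKM in EV (0.70 ± 0.12, adjusted p = 0.75), Hist1h1a had 0.73 ± 0.18 and Hist1h4n 0.89 ± 0.28 (adjusted p = 0.81 for each, limma-trend). Copies of these genes are nearly identical, so reads may be split among them.

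G2 and mitosis genes, which act after replication, had counts close to those of the replication genes. Of 42 listed and measured, 32 were lower in mean with a median of -0.16. Both ACSS2NLS values were under both EV values for 18 of the 42 and over them for 2 (18.1% and 19.3% of all genes). Of the 42, 3 were lower and 0 higher at unadjusted p < 0.05 (2.87% and 3.1% of all genes), and 0 passed in limma-trend. Their mean level was -0.12 and -0.024 in ACSS2NLS, against 0.11 and 0.036 in EV, so here the lowest library was ACSS2NLS replicate 1. The mitotic cyclin gene Ccnb2 was at 47.0 and 46.2 FPKM in ACSS2NLS, against 62.7 and 57.2 FPKM in EV (-0.35 ± 0.11), with Mybl2 and Kif4 at -0.34 ± 0.13 and -0.31 ± 0.12. Whether the 2 lists differ in their change was not tested.

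**Figure D4:**
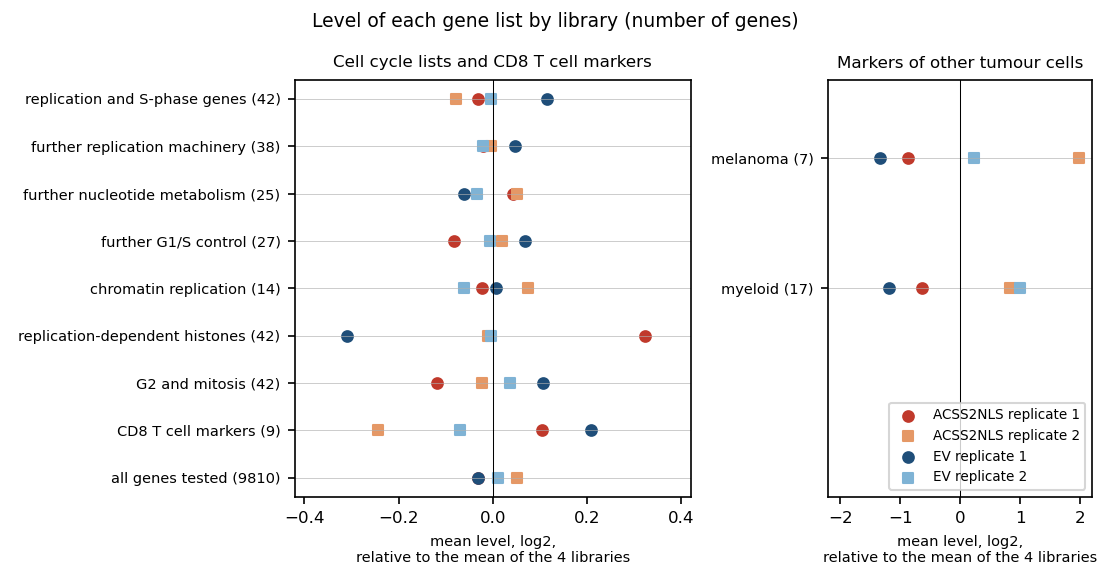
Mean level of each gene list in each library, as log2(FPKM + 1) relative to the mean of the 4 libraries, with the number of genes in brackets; the right panel, on a wider axis, shows markers of melanoma and myeloid cells. The replication and the G2 and mitosis genes are highest in EV replicate 1, while the histone genes are lowest there and highest in ACSS2NLS replicate 1.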

How the data were processed

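RNA was purified with a Qiagen micro column kit and turned into libraries with a SMART-Seq v4 low-input kit, per the labels' protocols. STAR 2.5.3a, HOMER and the mm10 build are named in the submitters' processing notes. The deposited values are FPKM with 3 decimals, which HOMER computed from tags on RefSeq exons on the sense strand with 1 transcript per gene, per the file headers. The columns are named Acss2WT and Acss2OE and were read as EV and ACSS2NLS by name and number; the header lists 8 tag directories and the file holds 4 library columns. Total tags were recovered from the step of low FPKM values: 100% of those checked fell on whole multiples within 0.1 of a step.

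From the FPKM, values were taken as log2(FPKM + 1), keeping the 9810 genes whose mean reached 1 FPKM. The groups were compared by a two-sided limma-trend test (version 3.58.1, under R 4.3.3), and p-values were adjusted by Benjamini-Hochberg at a threshold of 0.05. Count models were not used, since the values are normalized. The script was tested on simulated data. The smallest p of an exact permutation test of 2 against 2 libraries is 0.333. Whether the libraries came from separate mice is not stated, so p-values measure the spread between these samples only, which may be technical. The genes, roles and lists were chosen with earlier results of these data known. Values in every library are given for 9 fixed genes (Pcna, Mcm2, Mcm5, Cdt1, Gmnn, Rrm2, Tyms, E2f1 and Ccne1) and for up to 3 genes per role with the smallest unadjusted p; up to 3 are named for each other list. The remaining genes of the 42 are given by their change. Alternatives were other pseudocounts, filters and scalings, a replicate block and leaving out each library.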

Additional observations from a re-analysis of the deposited data

How the results depend on the processing

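For the 42 genes, 33 lower means became 28 to 35 across all settings, 0 genes passed under any of them, and the median log2 change stayed below 0; leaving out each library in turn it ran from -0.15 to -0.065. Direction held for 24 lower and 2 higher genes whichever library was left out. No share over all genes is given for this count, so it has no background to be read against. Both ACSS2NLS libraries lay above both EV libraries for 1 gene with a mean of at least 5 FPKM, where 17.2% of all genes did. After median-of-ratios scaling this held for 1 gene (18.2% of all genes), and after quantile normalization for 0 (17.3%). With a library left out fewer values must separate, and it held for 4 to 11 genes, against 30.95% to 43.4% of all genes. The ACSS2NLS values then lay below the EV values for 20 to 27 genes, against 28.6% to 39.4% of all genes. By role, leaving out a library gave medians of -0.13 to -0.058 for licensing, -0.063 to 0.029 for helicase activation, -0.094 to -0.013 for polymerases, -0.21 to 0.032 for the clamp and loader, -0.28 to -0.13 for single-strand binding and Okazaki fragment joining, -0.31 to -0.074 for nucleotide supply, -0.12 to -0.035 for G1/S regulators and -0.34 to -0.21 for chromatin at the fork. With a mean of at least 5 FPKM the G1/S regulators had -0.16 and the further replication machinery -0.033. For the other lists the ranges without a library were -0.035 to 0.053 (further machinery), 0.051 to 0.12 (further nucleotide genes), -0.18 to -0.0073 (further G1/S control), -0.034 to 0.077 (chromatin replication) and -0.21 to -0.086 (G2 and mitosis).

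Of the 42 genes, 16 changed sign without some library, among them Tyms, Pole and Mcm10, whose changes were larger than the median size. After quantile normalization Gmnn had 0.0083, Gins1 -0.024 and Slbp 0.0092. With a library left out the ranges were -0.047 to 0.26 for Cdc6, -0.16 to 0.11 for Gmnn, -0.39 to 0.076 for Mcm10, -0.027 to 0.066 for Cdc45, -0.029 to 0.051 for Gins1, -0.24 to 0.066 for Gins2, -0.12 to 0.043 for Pola1, -0.14 to 0.053 for Prim1, -0.42 to 0.080 for Pole, -0.095 to 0.17 for Pcna, -0.27 to 0.032 for Rfc3, -0.11 to 0.23 for Rfc4, -0.40 to 0.037 for Tyms, -0.050 to 0.21 for Dut, -0.025 to 0.041 for Ccne1 and -0.28 to 0.27 for Slbp; the cause was not tested.

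Over all genes, the 2 called higher became 1 with no filter on low values, and 0 to 9 were called lower with a library left out. Same-numbered libraries deviated together (r = 0.583 over 9810 genes), but with 2 pairs the labels' numbers are not shown to pair the samples. With the replicate block 229 genes were called higher and 172 lower, 0 of the 42 among them (smallest adjusted p = 0.131); Cdca7, Cdkn1a, Hells, Hist1h2ae, Hist1h1a and Hist1h4n passed there (limma adjusted p = 0.0141, 0.002, 0.0481, 0.00135, 0.0184 and 0.0138), in a fit with 1 residual degree of freedom. A group left with 1 library was assumed to vary like the other. Depth is no tight limit, since each of the 42 genes had about 300 or more tags per library.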
